A study of Mus musculus with 12 samples.

Results

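The genes described here are 48 genes of DNA replication and S phase, taken as a named list and found by symbol or Ensembl identifier among the 38924 gene entries of the deposited tables. All 48 passed the filter on low counts, which kept 13811 genes. They were measured in 12 RNA sequencing libraries of mouse CD4+ T cells on the C57BL/6 background, with 3 libraries in each of 4 groups. WT cells and cells of STINGgt/gt mice, which the labels call STING KO, each received DMSO or CMA for 16 hours. CMA is 10-carboxymethyl-9-acridanone, a small molecule that binds and activates mouse STING, the endoplasmic reticulum adaptor of cytosolic DNA sensing. The goldenticket allele (gt) is a missense change in Tmem173 that leaves no functional STING protein, so its transcript need not be absent. According to the methods, naive T cells were sorted from spleens of mice of 8 to 12 weeks, expanded for 2 days with anti-CD3 and anti-CD28 antibodies and rested for 1 day before the treatment, in all groups alike. The labels do not say whether the 3 libraries of a group came from separate mice, and the p-values then measure the spread between these libraries.

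Replication starts from licensed origins. The origin recognition complex (ORC), Cdc6 and Cdt1 load the ring of Mcm2 to Mcm7 on DNA before S phase, and Cdc45 and the GINS complex later turn that ring into the active helicase. Primase and polymerase alpha start each strand, polymerases epsilon and delta extend the leading and lagging strands on the sliding clamp Pcna, and ribonucleotide reductase and the thymidylate enzymes supply the nucleotides. In T cells activated through the antigen receptor, cyclin E with its kinase partner and the E2F transcription factors switch these genes on together at the entry into S phase.

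E2F factors are known to bind letters such as TTTCCCGC and TTTGGCGC near the start of replication genes, so 6 promoters are shown first to let the letters be seen in members that differed in their response. They are RefSeq promoter windows of the GRCm38.p6 assembly, from 250 bases before the annotated start to 50 bases after it, written 5′ to 3′ in the direction of the gene. Capitals mark any of TTTCCCGC, TTTCGCGC, TTTGCCGC and TTTGGCGC or their reverse complement. Mcm3 and Mcm6 code for helicase subunits, Orc1 and Pole2 for subunits of the origin recognition complex and of polymerase epsilon, Ccne1 for cyclin E1 and Dut for the enzyme that degrades dUTP. The Dut window starts inside the gene span of the deposited table.
Mcm3, chr1:20820263-20820562, strand -: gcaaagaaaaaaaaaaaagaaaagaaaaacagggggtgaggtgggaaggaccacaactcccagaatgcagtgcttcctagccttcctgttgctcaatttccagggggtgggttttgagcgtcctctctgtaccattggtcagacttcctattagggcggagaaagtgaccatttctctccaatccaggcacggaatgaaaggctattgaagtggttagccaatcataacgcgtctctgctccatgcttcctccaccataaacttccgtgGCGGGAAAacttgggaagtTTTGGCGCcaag
Mcm6, chr1:128359656-128359955, strand -: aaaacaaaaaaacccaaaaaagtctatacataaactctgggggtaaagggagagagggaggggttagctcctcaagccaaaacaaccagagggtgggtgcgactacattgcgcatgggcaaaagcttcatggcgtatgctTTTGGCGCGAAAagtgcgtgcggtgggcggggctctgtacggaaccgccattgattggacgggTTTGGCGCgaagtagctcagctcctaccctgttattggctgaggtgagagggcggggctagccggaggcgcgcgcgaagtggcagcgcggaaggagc
Orc1, chr4:108579204-108579503, strand +: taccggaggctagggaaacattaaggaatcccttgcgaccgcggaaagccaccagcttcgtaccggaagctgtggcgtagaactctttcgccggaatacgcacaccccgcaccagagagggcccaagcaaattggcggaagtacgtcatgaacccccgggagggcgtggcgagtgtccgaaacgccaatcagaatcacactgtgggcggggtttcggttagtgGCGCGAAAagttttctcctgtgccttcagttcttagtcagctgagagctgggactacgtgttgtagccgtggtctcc
Pole2, chr12:69228141-69228440, strand -: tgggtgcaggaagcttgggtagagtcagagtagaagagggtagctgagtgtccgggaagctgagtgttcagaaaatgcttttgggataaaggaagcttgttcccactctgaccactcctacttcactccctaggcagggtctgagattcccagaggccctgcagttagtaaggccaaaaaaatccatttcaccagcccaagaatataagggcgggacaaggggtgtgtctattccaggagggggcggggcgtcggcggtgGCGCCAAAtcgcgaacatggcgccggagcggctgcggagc
Ccne1, chr7:38107441-38107740, strand -: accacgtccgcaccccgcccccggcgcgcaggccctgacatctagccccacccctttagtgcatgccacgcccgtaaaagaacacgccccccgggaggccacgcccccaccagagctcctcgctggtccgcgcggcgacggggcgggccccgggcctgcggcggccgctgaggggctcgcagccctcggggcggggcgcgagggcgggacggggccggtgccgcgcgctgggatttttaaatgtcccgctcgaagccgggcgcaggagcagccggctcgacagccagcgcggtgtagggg
Dut, chr2:125247265-125247564, strand +: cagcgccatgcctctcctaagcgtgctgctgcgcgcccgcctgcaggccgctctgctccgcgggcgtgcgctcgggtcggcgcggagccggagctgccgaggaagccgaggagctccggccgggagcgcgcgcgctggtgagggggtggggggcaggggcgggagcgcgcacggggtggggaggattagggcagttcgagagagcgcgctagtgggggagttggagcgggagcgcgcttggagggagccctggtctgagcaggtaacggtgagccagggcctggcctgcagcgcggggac
The Mcm3 window held 2 matches, at 19 and 38 bases after the start. The Mcm6 window held 3, of which the pair at 110 and 106 bases before the start overlap and the third lies at 47 bases before it. Orc1 had 1 match at 27 bases before the start, and Pole2 had 1 at 10 bases after it. The windows of Ccne1 and Dut held none of these letters, which says only that they are not in this stretch.

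Promoter windows were matched for 38 of the 48 members. Mcm4, Gins1, Gins2, Gins4, Gmnn, Rfc2, Dscc1, Prim2, Pole and Ccne2 had none. At least 1 of the E2F letters, searched on both strands, was present in 13 of the 38 (34.2%) and in 704 of the 27025 genes with a window (2.60%). The 13 were Mcm3, Mcm5, Mcm6, Mcm7, Gins3, Orc1, Cdc6, Cdt1, Rfc3, Pola1, Pold1, Pole2 and Lig1. Of their 19 matches, 12 began within 100 bases before the start or in the 50 bases after it. The letters CCAAT, bound by NF-Y, were present in 23 of the 38 (60.5%) and in 41.1% of all genes. The cell cycle homology letters TTTGAA and TTCGAA were present in 7 of the 38 (18.4%) and in 21.7% of all genes.

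Each library held between 27414450 and 43784910 reads assigned to genes, and no 2 libraries of a group agreed within counting noise (chi-square per degree of freedom 2.63 to 29.9). The WT DMSO libraries, the baseline of the CMA comparison in WT and of the comparison of genotypes, differed more among themselves than those of any other group, with 9.98 to 29.9 for their pairs against 2.63 to 6.82 elsewhere, and replicates 2 and 3 were the farthest apart. Mitochondrial reads made up 0.742%, 1.17% and 0.712% of their gene reads and 0.804% to 0.988% in the other groups. Reads on no gene made up 4.86% to 5.47% of entries in WT with DMSO, 6.79% to 7.16% in WT with CMA and 5.98% to 6.54% in STINGgt/gt. The part of these differences in the results was not tested, and values without single WT DMSO libraries are given below. Members had 290 to 27134 reads in a library, and counting noise is relatively larger for those with few reads. Tmem173 transcript ranged from 183 to 190 CPM (read counts scaled to a common library size) in WT with DMSO, from 296 to 316 in WT with CMA, from 168 to 181 in STINGgt/gt with DMSO and from 169 to 184 in STINGgt/gt with CMA, which checks no label for a missense allele. The 8 T cell markers, Cd4 and the Cd3 genes among them, summed to 3226 to 3319 CPM in WT with DMSO and to 2985 to 2995 in WT with CMA. Genes of other cells were present in every group. Of the 6 B cell markers, the sum was 632 to 696 CPM in WT with DMSO, 716 to 799 in WT with CMA, 289 to 298 in STINGgt/gt with DMSO and 307 to 318 in STINGgt/gt with CMA. The 6 CD8 and NK cell markers summed to 93.9 to 111, 49.9 to 52.9, 32.2 to 34.0 and 31.4 to 32.6 CPM in the same order, and the 7 myeloid markers to 45.6 to 49.4, 57.3 to 61.6, 35.1 to 37.2 and 33.6 to 38.0 CPM. Most of the myeloid sum was Cst3, which rose with CMA in WT (38.6 ± 2.35 to 55.7 ± 2.43 CPM, SD, n = 3, log2 0.53, edgeR adjusted p = 4.0e-07), while 3 of the 6 tested markers, Lyz2, Itgam and Itgax, fell and the median log2 fold change of the 6 was -0.79. No marker was at 0 in every library of a group. Naive T cells had been sorted before the culture, and the source of these transcripts was not tested. Their part in the results below was not tested either.

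The first comparison asked what CMA did to the replication genes of WT cells. CMA split the list. The S-phase entry genes Ccne1, Ccne2 and E2f1 rose, while the dUTPase Dut, the second subunits of polymerases delta and epsilon (Pold2 and Pole2), the origin recognition subunits Orc1 and Orc2, the polymerase alpha catalytic subunit Pola1, the largest replication protein A subunit Rpa1 and the helicase subunit Mcm2 fell. In all, 10 members rose and 21 fell at a Benjamini-Hochberg adjusted p under 0.05 in edgeR, and 17 passed in neither direction. These are 20.8% and 43.8% of the members, while among all 13811 genes tested 33% rose and 37.4% fell. Among the 8308 genes whose mean CPM was at least that of the lowest member, 34.5% rose and 42.5% fell. The calls of Mcm3, Gins1, Cdt1, Pcna, Rfc5, Prim1 and Lig1 were each lost under at least 1 alternative setting, and 8 members that had not passed, Mcm6, Gins3, Cdc45, Cdc6, Pold1, Rpa2, Fen1 and Chaf1b, passed under at least 1. By edgeR, 8 rose and 19 fell without WT DMSO replicate 1, 10 rose and 20 fell without replicate 2, and 14 rose and 18 fell without replicate 3. The median log2 fold change of the members was -0.08, against -0.04 over all genes. The changes of the members were small: 7 of 48 (14.6%) moved by more than 0.5 on the log2 scale, against 40.1% of all genes tested and 29.8% of the 8308 genes whose mean CPM was at least that of the lowest member. Ccne1 was the 1 member that moved by 2-fold or more. The balance of rises and falls differed between settings. With library-size scaling 9 rose and 23 fell, and by DESeq2 14 rose and 17 fell. By limma on the authors' log2 values 15 rose and 17 fell. By edgeR on genes that had 10 or more counts in each library 15 rose and 16 fell. The medians over all genes moved as well. In the same order they were -0.064, -0.010, 0.003 and -0.003, against -0.102, -0.047, -0.033 and -0.034 over the members. Reads on the 48 members made up 0.636% ± 0.0154 (SD, n = 3) of reads on genes in WT with DMSO and 0.575% ± 0.00522 in WT with CMA. In whole cultures, fewer cells in S phase and less transcript per cell cannot be told apart. The paper reports death of T cells cultured overnight with CMA, with signs of apoptosis in WT but not in STINGgt/gt cells. The part of dying or lost cells in the changes of WT cultures with CMA was not tested.

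**Figure D1:**
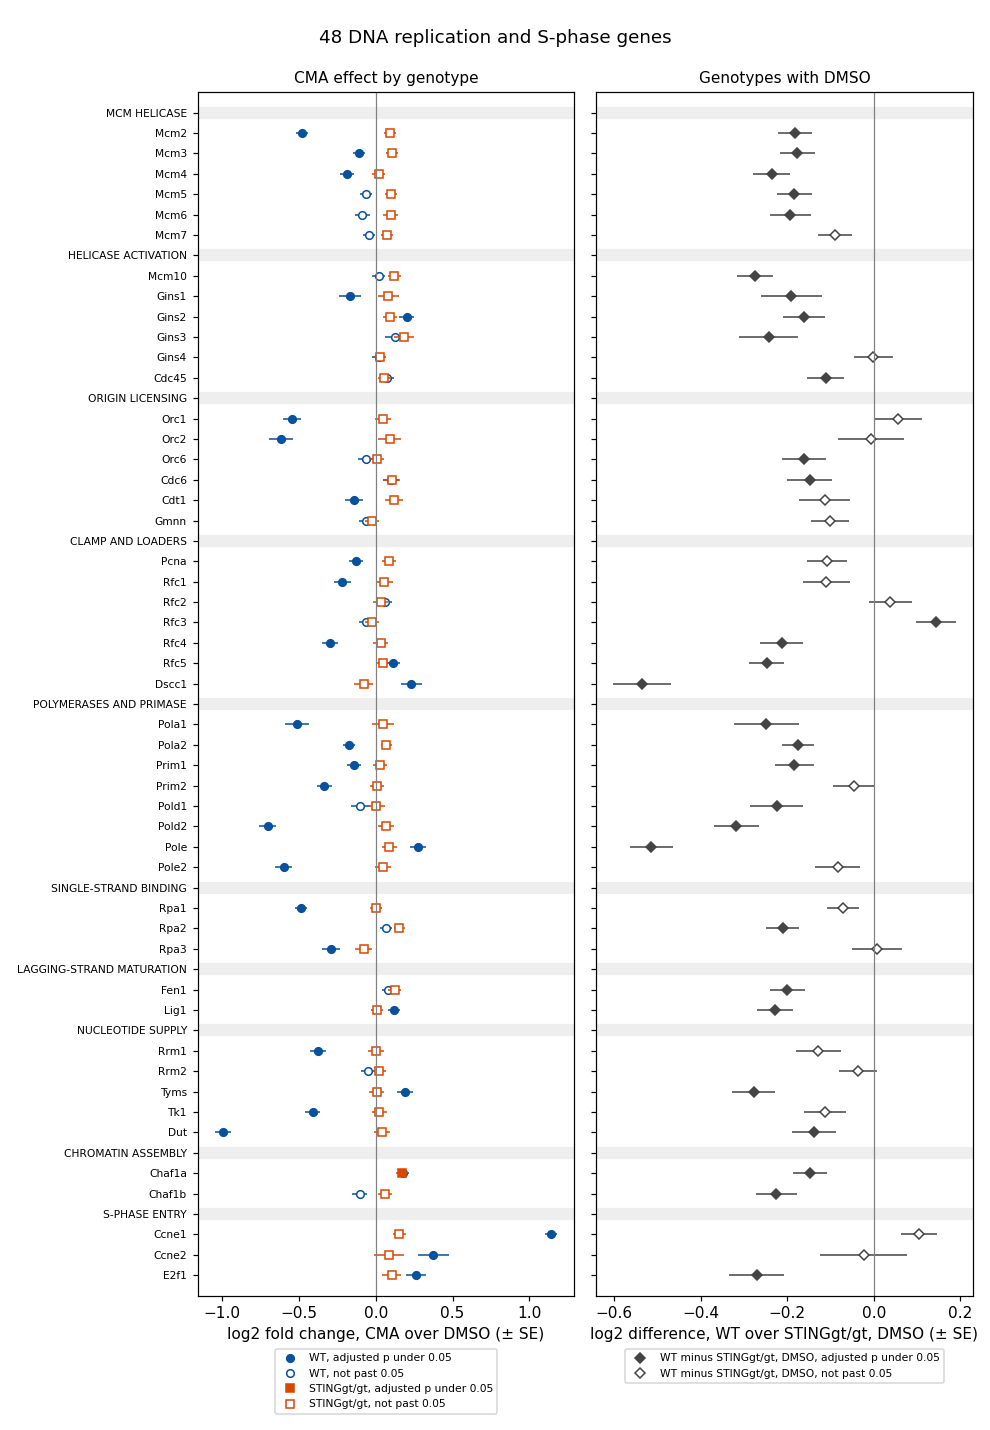
Left, log2 fold change of each of the 48 members with CMA over DMSO in WT (blue circles) and STINGgt/gt cells (orange squares); right, log2 difference between WT and STINGgt/gt cells with DMSO (grey diamonds). Bars are standard errors, filled symbols have an edgeR adjusted p under 0.05, and genes are grouped by role. In WT the symbols run from -0.996 (Dut) to 1.14 (Ccne1), while in STINGgt/gt they run from -0.08 to 0.18.

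The 3 genes that carry cells into S phase rose together in WT with CMA. Ccne1, which codes for cyclin E1 (chr7:38097984-38107534 on GRCm38), stood at 61.8, 64.4 and 64.9 CPM with DMSO and at 141, 139 and 141 CPM with CMA in WT. In STINGgt/gt it stood at 61.8, 57.6 and 58.3 CPM with DMSO and at 65.8, 65.6 and 66.3 with CMA. The WT libraries with CMA thus lay above all 9 others, and the rise in WT was 2.20-fold (log2 1.14 ± 0.04 SE, edgeR adjusted p = 3.4e-13). Ccne2, the second E-type cyclin, went from 33.4, 27.8 and 40.5 CPM to 46.3, 42.6 and 43.7 CPM in WT. Its DMSO libraries were spread more widely than those of Ccne1, yet all 3 CMA libraries lay above them (log2 fold change 0.38 ± 0.10 SE, edgeR adjusted p = 0.003). The log2 fold change was 0.24 without WT DMSO replicate 2, the lowest of these libraries, and 0.54 without replicate 3, the highest. E2f1, the transcription factor whose targets include many of the other members, stood at 47.3, 48.6 and 40.7 CPM with DMSO and at 54.3, 56.8 and 52.2 CPM with CMA in WT, a log2 fold change of 0.26 ± 0.06 SE (edgeR adjusted p = 0.0015). Its STINGgt/gt libraries ranged from 52.5 to 60.5 CPM and overlapped with the CMA-treated WT libraries.

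**Figure D2:**
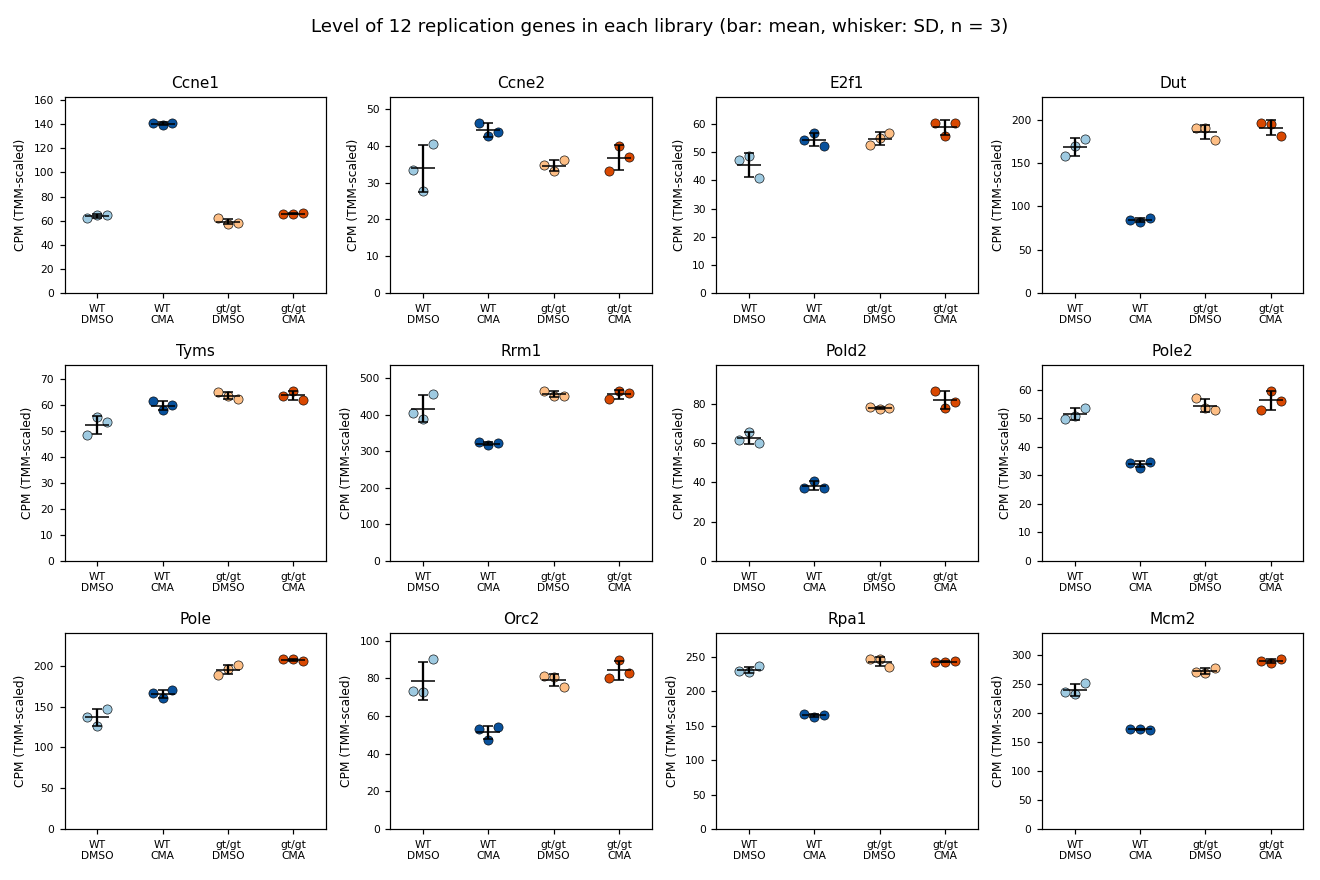
CPM of 12 members in each of the 12 libraries, by group, with the mean (bar) and SD (whisker, n = 3); every vertical axis starts at 0. Ccne1 lies between 139 and 141 CPM in the 3 WT libraries with CMA and between 57.6 and 66.3 CPM elsewhere, while Dut lies between 82.0 and 87.0 CPM there and between 158 and 196 CPM elsewhere.

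Of the 6 subunits of the MCM helicase, the ring that unwinds DNA, 3 fell in WT with CMA (50%) and 3 did not pass. Over all genes tested the shares were 37.4% lower and 33% higher. Among the 6 subunits, Mcm2 moved most. It stood at 235, 232 and 250 CPM with DMSO and at 172, 172 and 171 CPM with CMA in WT, without overlap, and at 268 to 277 and 286 to 293 CPM in STINGgt/gt (WT log2 fold change -0.48 ± 0.04 SE, edgeR adjusted p = 1.7e-08). Mcm4 went from 339, 326 and 363 to 303, 303 and 296 CPM (-0.19 ± 0.04 SE, edgeR adjusted p = 9.5e-04), and Mcm3 from 419, 412 and 446 to 400, 388 and 394 CPM (-0.11 ± 0.04 SE, edgeR adjusted p = 0.023). Without WT DMSO replicate 3, the highest of its DMSO libraries, Mcm3 did not pass (-0.06, edgeR adjusted p = 0.15). Mcm5, Mcm6 and Mcm7 had log2 fold changes of -0.06, -0.09 and -0.05 with edgeR adjusted p of 0.18, 0.11 and 0.30. Per transcript length, Mcm6 was the most abundant subunit in every group, with 167 ± 10.6 RPKM (SD, n = 3; the CPM divided by the transcript length in kilobases) in WT with DMSO, and Mcm2 was the least abundant, with 71.0 ± 2.92 RPKM there and 50.9 ± 0.234 in WT with CMA.

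The genes that turn the loaded ring into a moving helicase hardly shifted. Gins2, a subunit of the GINS complex, rose from 33.2, 34.5 and 34.3 to 39.6, 39.7 and 37.9 CPM in WT (log2 fold change 0.20 ± 0.05 SE, edgeR adjusted p = 0.0014). Its partner Gins1 went the other way, from 20.5, 22.6 and 23.4 to 19.7, 18.8 and 21.0 CPM, with an adjusted p at the threshold (-0.17 ± 0.07 SE, edgeR adjusted p = 0.049). Gins3, Gins4, Cdc45, the third component of the active helicase, and Mcm10, another gene of helicase activation, did not pass. Their log2 fold changes were 0.13, 0.02, 0.07 and 0.02. The exons of Gins2 overlap those of Gse1 on the other strand over 2758 bases.

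Among the origin licensing genes, Orc1 and Orc2 fell clearly. Orc1, the ATP-binding subunit of the origin recognition complex, stood at 36.6, 37.7 and 42.7 CPM with DMSO and at 26.5, 26.6 and 27.2 CPM with CMA in WT (log2 fold change -0.55 ± 0.06 SE, edgeR adjusted p = 2.6e-07). Orc2 stood at 73.1, 72.5 and 90.4 CPM with DMSO and at 52.9, 47.3 and 53.9 CPM with CMA (-0.62 ± 0.08 SE, edgeR adjusted p = 2.5e-06). For both, each WT library with CMA lay below all of the other 9 libraries. The third ORC subunit of the list, Orc6, did not pass (-0.07 ± 0.05 SE, edgeR adjusted p = 0.26). Of the loading factors, Cdt1 fell slightly (-0.14 ± 0.06 SE, edgeR adjusted p = 0.043) and Cdc6 did not pass (0.10 ± 0.05 SE, edgeR adjusted p = 0.10). Cdc6 passed as higher under 4 of 21 alternative settings, with the largest value, 0.18, without WT DMSO replicate 3 (edgeR adjusted p = 0.0016). Geminin (Gmnn), the inhibitor of Cdt1, did not pass either (-0.07 ± 0.04 SE, edgeR adjusted p = 0.19). On the other strand, exons of Orc2 overlap Nif3l1 over 1150 bases and exons of Orc1 overlap the predicted gene Gm12743 over 376 bases.

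The sliding clamp and its loaders moved in both directions. Pcna, the clamp, was the most abundant member per transcript length (242 ± 12.9 RPKM in WT with DMSO) and fell slightly, from 350, 365 and 389 to 338, 320 and 350 CPM (log2 fold change -0.13 ± 0.05 SE, edgeR adjusted p = 0.019). The replication factor C subunit Rfc4 fell from 55.8, 61.8 and 62.4 to 48.5, 47.2 and 50.6 CPM (-0.30 ± 0.05 SE, edgeR adjusted p = 6.0e-05). Rfc1, the large subunit of that loader, fell by 0.22 on the log2 scale (edgeR adjusted p = 0.0021). Without WT DMSO replicate 3 the log2 fold change of Rfc1 was -0.14 (edgeR adjusted p = 0.013), and Pcna did not pass (-0.08, edgeR adjusted p = 0.11). Rfc5, another small subunit, rose by 0.11 (edgeR adjusted p = 0.022), and Rfc2 and Rfc3 did not pass, with 0.06 and -0.06. Dscc1, part of the alternative loader that serves sister chromatid cohesion, rose from 10.6, 10.0 and 10.6 to 12.6, 12.2 and 11.8 CPM (0.23 ± 0.07 SE, edgeR adjusted p = 0.0061). Its WT groups did not overlap, and it had 290 to 671 reads in each of the 12 libraries. The WT libraries with CMA stayed below those of STINGgt/gt, which ranged from 13.4 to 15.6 CPM over both treatments.

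The polymerase genes held the widest split within single enzymes. Of the 8 polymerase and primase genes, 6 fell (75%), 1 rose (12.5%) and 1 did not pass. Of all genes tested, 37.4% fell and 33% rose. Pold2, the accessory subunit of polymerase delta, stood at 61.7, 65.7 and 60.2 CPM with DMSO and at 37.2, 40.8 and 36.9 CPM with CMA in WT, and at 77.5 to 78.2 and 77.5 to 86.5 CPM in STINGgt/gt. It was the second most reduced member after Dut (log2 fold change -0.71 ± 0.05 SE, edgeR adjusted p = 5.6e-09), while the catalytic subunit Pold1 did not pass (-0.10 ± 0.06 SE, edgeR adjusted p = 0.15). Without WT DMSO replicate 3, Pold1 passed as lower (-0.17, edgeR adjusted p = 0.0078), and without replicate 2 it had -0.05 (edgeR adjusted p = 0.47). Pole2, the second subunit of polymerase epsilon, stood at 49.6, 50.7 and 53.7 CPM with DMSO and at 34.3, 32.6 and 34.7 CPM with CMA (-0.60 ± 0.05 SE, edgeR adjusted p = 4.7e-08). The catalytic subunit of the same enzyme, Pole, moved the other way, from 137, 127 and 147 to 166, 160 and 170 CPM (0.27 ± 0.05 SE, edgeR adjusted p = 1.2e-04). With DMSO, Pole was also lower in WT than in STINGgt/gt cells, where it ranged from 189 to 201 CPM. Pola1, the catalytic subunit of polymerase alpha, fell from 111, 96.6 and 129 to 80.0, 75.4 and 80.8 CPM (-0.51 ± 0.08 SE, edgeR adjusted p = 1.3e-05). Its partner Pola2 fell less (-0.17 ± 0.04 SE, edgeR adjusted p = 5.8e-04). The primase subunits Prim1 and Prim2, which lay the RNA primer, had log2 fold changes of -0.14 and -0.34 (edgeR adjusted p = 0.010 and 1.1e-05). Exons of Pole2 share 245 bases with the predicted gene Gm49384 on the same strand.

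**Figure D3:**
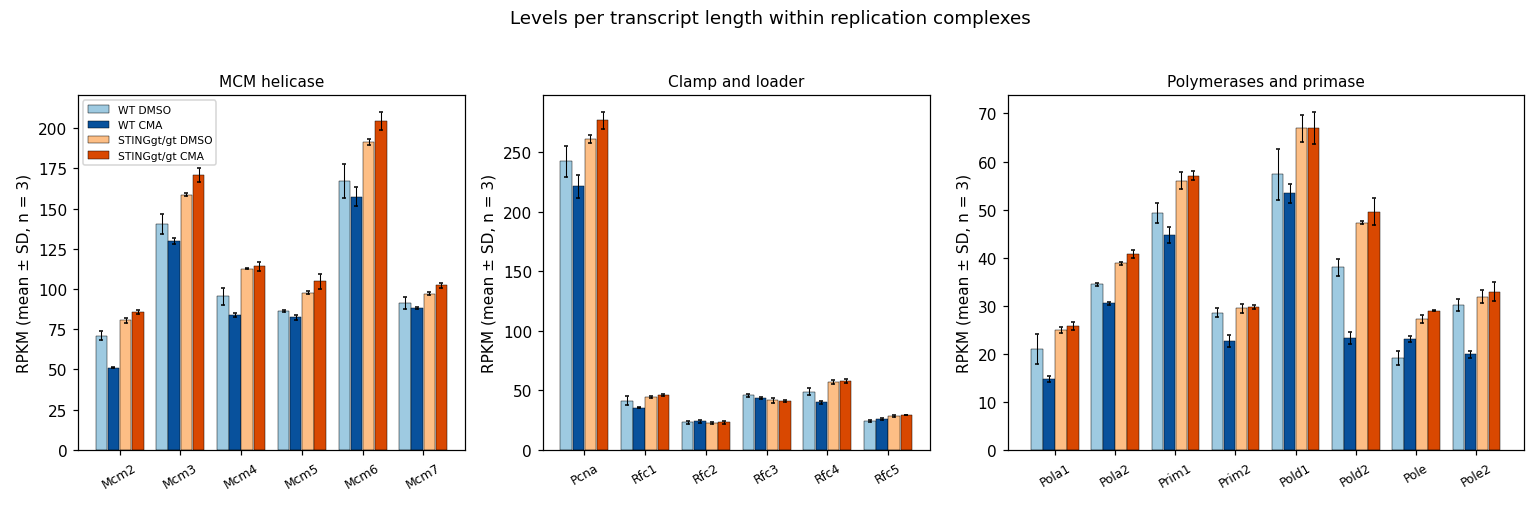
Mean level per transcript length (RPKM, bars, with SD whiskers, n = 3) of the subunits of the MCM helicase, of the clamp with its loader and of the polymerases with primase, in the 4 groups. Mcm2, Pold2 and Pole2 are lower in WT with CMA (dark blue) than in the other 3 groups, and Pole is lowest in WT with DMSO, at 19.1 RPKM.

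Replication protein A, which coats single-stranded DNA, showed a similar split. Rpa1, its DNA-binding large subunit, stood at 229, 228 and 236 CPM with DMSO and at 166, 163 and 165 CPM with CMA in WT, and between 235 and 247 CPM in all STINGgt/gt libraries (WT log2 fold change -0.49 ± 0.04 SE, edgeR adjusted p = 6.8e-09). The smallest subunit Rpa3 fell from 33.8, 32.9 and 32.9 to 28.5, 27.1 and 25.5 CPM (-0.29 ± 0.06 SE, edgeR adjusted p = 3.1e-04). Rpa2 did not pass (0.06 ± 0.04 SE, edgeR adjusted p = 0.14). Of the genes that finish the lagging strand, the ligase Lig1 rose slightly (0.12 ± 0.04 SE, edgeR adjusted p = 0.016), and the flap nuclease Fen1 did not pass (0.08 ± 0.04 SE, edgeR adjusted p = 0.096).

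Among the genes of nucleotide supply, 3 fell (60%), 1 rose (20%) and 1 did not pass, while 37.4% of all genes tested fell and 33% rose. Dut (chr2:125247190-125258608), whose enzyme removes dUTP and makes the dUMP from which thymidylate is built, stood at 158, 169 and 178 CPM with DMSO and at 84.2, 82.0 and 87.0 CPM with CMA in WT. In STINGgt/gt it ranged from 176 to 190 CPM with DMSO and from 181 to 196 CPM with CMA. The WT libraries with CMA thus lay below all the others, and the fall of 49.9% was the largest of the 48 genes (log2 fold change -0.996 ± 0.05 SE, edgeR adjusted p = 5.2e-11). Thymidylate synthase (Tyms), which uses dUMP, rose from 48.4, 55.2 and 53.4 to 61.3, 58.0 and 60.0 CPM (0.19 ± 0.05 SE, edgeR adjusted p = 0.0028). Thymidine kinase (Tk1), the salvage enzyme, fell from 72.7, 80.3 and 72.6 to 55.2, 56.9 and 57.6 CPM (-0.41 ± 0.05 SE, edgeR adjusted p = 1.2e-06). Rrm1, the large subunit of ribonucleotide reductase, fell from 406, 388 and 458 to 326, 316 and 322 CPM (-0.38 ± 0.05 SE, edgeR adjusted p = 7.2e-06), while the small subunit Rrm2 did not pass (-0.05 ± 0.04 SE, edgeR adjusted p = 0.28). Of the chromatin assembly factor genes, which place histones behind the fork, Chaf1a rose (0.18 ± 0.04 SE, edgeR adjusted p = 7.5e-04) and Chaf1b did not pass (-0.11 ± 0.05 SE, edgeR adjusted p = 0.063). The exons of Chaf1a overlap those of Ubxn6 on the other strand over 4648 bases. A named pseudogene of Pcna and of Tyms exists in the annotation, and reads that fit both would not have been counted as unique.

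Ratios between partner genes within 1 library do not depend on the scaling between libraries. The pairs were chosen with the values known, so the ratios are a description with no test. Per transcript length, the ratio of Pole2 to Pole was 1.52, 1.68 and 1.54 in WT with DMSO and 0.866, 0.854 and 0.858 in WT with CMA, against 1.17 ± 0.0820 (SD, n = 3) and 1.14 ± 0.0645 in STINGgt/gt with DMSO and CMA. In WT, CMA thus took this ratio from above to below its STINGgt/gt range. The ratio of Pold2 to Pold1 went from 0.665 ± 0.0398 (SD, n = 3) to 0.436 ± 0.0111 in WT, while in STINGgt/gt it was 0.707 ± 0.0323 and 0.740 ± 0.00479. The ratio of Dut to Tyms, neighbouring steps towards thymidylate, went from 5.22 ± 0.231 to 2.29 ± 0.0640 in WT, and was 4.73 and 4.86 in STINGgt/gt. That was the largest relative change of the 10 pairs. The ratio of Ccne1 to Ccne2 went from 2.89 ± 0.547 to 4.78 ± 0.183 in WT. In 6 further pairs (Pola1 to Pola2, Rpa1 to Rpa2, Mcm2 to Mcm5, Orc2 to Orc6, Rfc4 to Rfc5 and Rrm1 to Rrm2) the WT mean with CMA was 0.682 to 0.800 of that with DMSO, and the STINGgt/gt mean with CMA was 0.900 to 1.06 of that with DMSO.

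**Figure D4:**
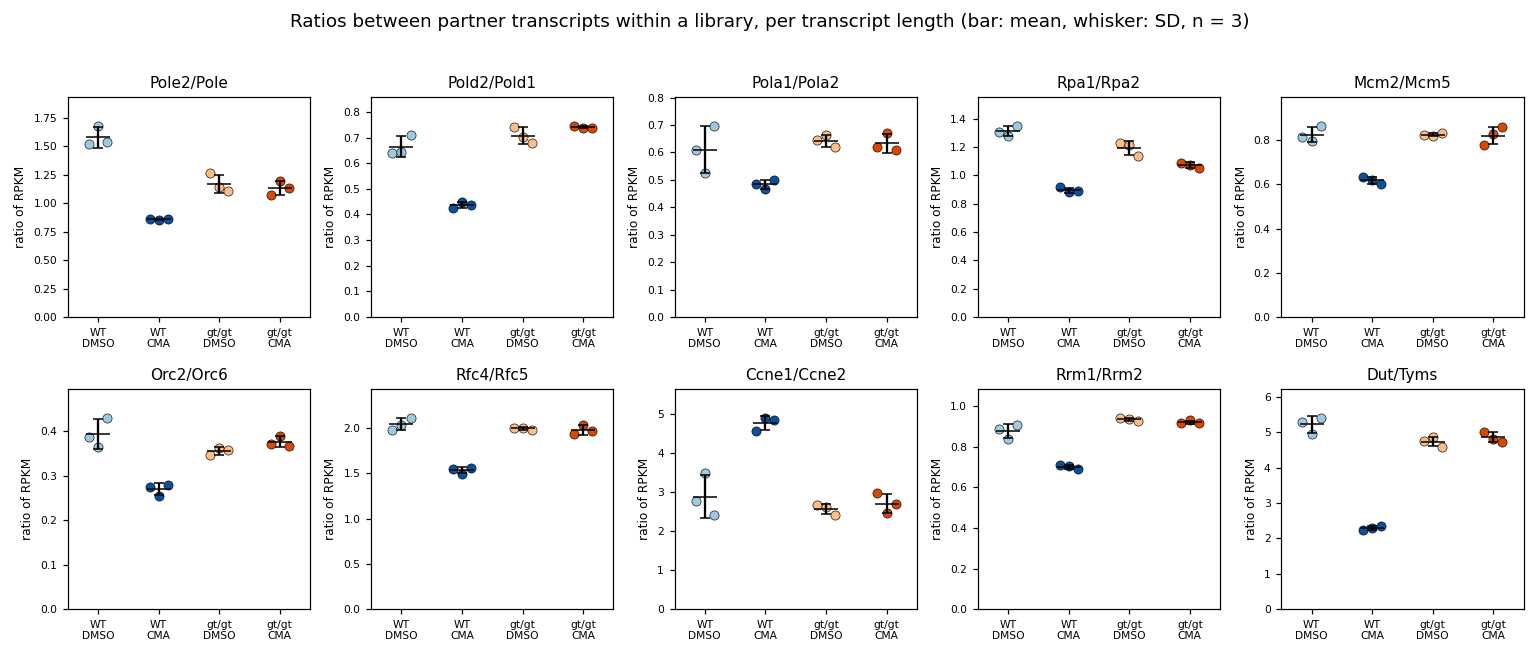
Ratio of levels per transcript length between 2 partner genes in each library, for 10 pairs, by group, with the mean (bar) and SD (whisker, n = 3); every vertical axis starts at 0. In each panel the 3 WT libraries with CMA (dark blue) lie apart from the 3 WT libraries with DMSO (light blue), below them in 9 pairs and above them for Ccne1 to Ccne2.

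In STINGgt/gt cells, CMA left the replication genes almost where they were. In edgeR 1 member rose and 0 fell at an adjusted p under 0.05, while 0.398% of all genes rose and 0.92% fell. At an unadjusted p under 0.05, 9 members (18.8%) passed, against 13% of all genes. Chaf1a was the 1 called member, with 130, 137 and 133 CPM with DMSO and 152, 147 and 149 CPM with CMA (log2 fold change 0.17 ± 0.04 SE, edgeR adjusted p = 0.043), and this call was kept in 9 of 21 alternative settings. DESeq2 called 3 members higher and 0 lower, and limma-voom 1 and 0. The small shifts that were there pointed upward. For 17 members each of the 3 CMA libraries lay above each of the 3 DMSO libraries, for 0 they lay below, and among all genes these shares were 11.8% and 11.3%. The median log2 fold change of the members was 0.05, against 0.00 over all genes. Rpa2 had the adjusted p closest to the threshold after Chaf1a (0.15 ± 0.04 SE, edgeR adjusted p = 0.057), followed by Ccne1 (0.15 ± 0.04 SE, edgeR adjusted p = 0.084), and these 2 passed under 5 and 4 of the 21 alternative settings.

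The effect of CMA on the members was then compared between the genotypes as an interaction term, the WT effect minus the STINGgt/gt effect. At an adjusted p under 0.05 in edgeR, the difference passed as negative for 24 members (50%) and as positive for 4 (8.33%), against 31.6% and 27.2% of all genes, with a median over the members of -0.14 against -0.03. The 28 make up 58.3% of the members, near the 58.8% of all genes that passed in either direction. Without regard to p, the difference was below 0 for 36 members and above 0 for 12. Both genotypes' effects enter this difference, so it shares its WT libraries with the comparison in WT. Among the 24 were 3 members that had not passed in WT alone, Mcm5 (-0.16 ± 0.06 SE, edgeR adjusted p = 0.024), Mcm6 (-0.18 ± 0.07 SE, 0.027 by edgeR; -0.12 without WT DMSO replicate 3) and Chaf1b (-0.16 ± 0.07 SE, 0.047 by edgeR). Under at least 1 alternative setting these 3 calls and those of Gins1, Cdt1, Prim1, Pole, Rpa3 and Tyms were lost, and Mcm7, Gins2, Pold1, Lig1, Ccne2 and E2f1 passed. Without WT DMSO replicate 1, 2 or 3 the difference passed as negative for 23, 23 and 21 members and as positive for 3, 4 and 6. The 4 members that passed as positive were Ccne1 (0.99 ± 0.06 SE, edgeR adjusted p = 4.6e-10), Dscc1, Pole and Tyms. For Gins2, Rfc5, Lig1, Chaf1a, Ccne2 and E2f1, which also rose in WT, the difference was above 0 but did not pass. Chaf1a had nearly the same fold change in both (difference 0.01 ± 0.06 SE, edgeR adjusted p = 0.91). Ccne2, with a difference of 0.29 ± 0.14 SE, did not pass (edgeR adjusted p = 0.087), but it passed in 6 of 20 alternative settings, both replicate blocks included. Its value ran from 0.16 to 0.46 over the alternatives and was highest without WT DMSO replicate 3 (edgeR adjusted p = 8.4e-04).

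Without CMA, most replication genes were lower in WT than in STINGgt/gt cells. With DMSO, 29 members were lower in WT and 1 was higher in edgeR, against 19.8% and 22.9% of all genes tested. The median log2 difference was -0.16 over the members and 0.00 over all genes. Reads on the 48 members made up 0.722% ± 0.000644 (SD, n = 3) of reads on genes in STINGgt/gt with DMSO and 0.753% ± 0.00163 with CMA. Most of these differences were small, and the 2 largest were Dscc1 (10.6, 10.0 and 10.6 CPM in WT against 15.6, 14.8 and 14.8, log2 -0.54 ± 0.07 SE, edgeR adjusted p = 6.9e-06) and Pole (137, 127 and 147 CPM against 189, 196 and 201, log2 -0.51 ± 0.05 SE, edgeR adjusted p = 4.5e-07). Pold2 followed with -0.32 ± 0.05 SE (edgeR adjusted p = 1.2e-04), then Tyms with -0.28, Mcm10 with -0.27 and E2f1 with -0.27. The helicase was lower in 5 of its 6 subunits, with log2 differences from -0.24 (Mcm4) to -0.18 (Mcm3), and Mcm7 did not pass (-0.09 ± 0.04 SE, edgeR adjusted p = 0.073). Rfc3 was the 1 member higher in WT, with 59.8, 62.4 and 58.6 CPM against 56.7, 55.4 and 51.4 (0.14 ± 0.05 SE, edgeR adjusted p = 0.019). The calls of Rfc3, Gins1, Cdc45, Orc6, Cdc6, Pola1 and Dut were each lost under at least 1 alternative setting, and Mcm7, Cdt1, Gmnn, Pcna, Rfc1, Rpa1, Rrm1, Tk1 and Ccne1 passed under at least 1. Without WT DMSO replicate 1, 2 or 3, 24, 30 and 34 members were lower in WT by edgeR. Ccne1 was at the threshold (0.11 ± 0.04 SE, edgeR adjusted p = 0.051). The marker lists moved with genotype as well: 6 of 6 tested B cell markers, 6 of 6 tested myeloid markers and 5 of 6 CD8 and NK cell markers were higher in WT with DMSO by edgeR. Their part in the lower member levels was not tested.

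The comparison of genotypes shares its WT DMSO libraries with the CMA comparison, so each gene's values are set side by side only. For Pole, WT cells had 160 to 170 CPM with CMA and STINGgt/gt cells 189 to 201 with DMSO, so the WT level stayed below. For E2f1, WT cells reached 52.2 to 56.8 CPM with CMA, within the 52.5 to 56.9 CPM of STINGgt/gt cells with DMSO but for 1 library. For Tyms the WT libraries stood at 48.4 to 55.2 CPM with DMSO and 58.0 to 61.3 with CMA, against 62.2 to 64.9 in STINGgt/gt with DMSO. Rfc5 had 71.4 to 74.0 CPM in WT with CMA, against 78.0 to 81.7 in STINGgt/gt with DMSO. Lig1 had 263 to 273 against 285 to 292 CPM in the same groups. Of the other members that rose in WT, Dscc1 also stayed below, Gins2 and Chaf1a overlapped with STINGgt/gt with DMSO, and Ccne1 and Ccne2 lay above.

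Over the 12 libraries, most members followed a similar course. The correlation of a member with the mean of the other members was positive for 44 of 48 and above 0.7 for 37, with a median Pearson r of 0.81. It was highest for Mcm6 (0.984) and Mcm3 (0.979), and it was negative for Ccne2 (-0.33), Rfc2 (-0.53), Ccne1 (-0.69) and Rfc3 (-0.73). These values describe 12 libraries that fall in 4 groups and carry no test. Outside the list, the genes whose levels most resembled the mean course of the members were Hnrnpu (Pearson r 0.989), Zdhhc13, Lap3, Zfp592, Mat2a, Antxr2, Gucy1b3, Nab2, Pogz and Suv39h1 (0.981).

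The E2F letters were found in members of each response. They stood in 5 of the 18 matched members that fell in WT with CMA (Mcm3, Orc1, Cdt1, Pola1 and Pole2), in 1 of 6 that rose (Lig1) and in 7 of 14 that passed in neither direction. The 2 windows without such letters shown above belong to the members with the largest rise and the largest fall. Most matched members that rose or fell also lacked these letters. CCAAT was present in 12 of 18, 1 of 6 and 10 of 14 in the same order. With 10 members unmatched, these counts are a description.

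Replication genes outside the list were read from a further list of 44, all of which were tested. In WT with CMA, 9 rose (20.5%) and 19 fell (43.2%) in edgeR, against 33% and 37.4% of all genes, with a median log2 fold change of -0.13 against -0.04. The largest rises were Samhd1, a dNTP hydrolase (838 ± 43.4 to 2334 ± 46.7 CPM, SD, n = 3, log2 1.48, edgeR adjusted p = 1.1e-13), and Mcm9, a helicase of DNA repair (18.6 ± 0.936 to 34.0 ± 1.09 CPM, log2 0.86, edgeR adjusted p = 2.3e-10). The largest falls were Dctd, the deaminase that makes dUMP from dCMP (16.2 ± 0.889 to 4.64 ± 0.405 CPM, log2 -1.79, edgeR adjusted p = 2.1e-11), and Dna2, the nuclease that trims long flaps (31.1 ± 1.34 to 15.02 ± 0.347 CPM, log2 -1.05, edgeR adjusted p = 2.5e-11). In STINGgt/gt, edgeR called 0 of the 44 (5 at an unadjusted p under 0.05, or 11.4% against the 13% of all genes). With DMSO, 28 of the 44 were lower and 2 higher in WT than in STINGgt/gt, against 19.8% and 22.9% of all genes.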

How the data were processed

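RNA of 12 libraries of splenic CD4+ T cells (4 groups of 3) was sequenced by the study with a stranded mRNA kit. The submitters' processing notes name cutadapt 1.3, STAR 2.4.0f1, HTSeq 0.6.1, RSEM 1.2.16 and GRCm38, while the annotation and the strand setting of the counting are not given in the sources used here. Deposited by the authors were, for each library, the unnormalized read counts of every Ensembl gene and, for the series, log2 expression values of 11921 genes. Alignments that were not unique (27.8% to 30.3% of all entries) and other entries without a gene stayed out of library sizes. Counts were fitted with edgeR 4.0.16 (R 4.3.3, glmQLFit and glmQLFTest) with TMM scaling, filterByExpr (13811 genes kept), 4 groups in a single model and no block, and Benjamini-Hochberg adjustment over all genes tested at a threshold of 0.05. CPM are TMM-scaled, RPKM divide them by the length of the longest principal transcript in GENCODE, and errors are SD over libraries or SE of the fit. Alternatives were library-size scaling, DESeq2 1.42.0, limma-voom (limma 3.58.1), limma on the deposited log2 table, other filters, only the groups compared, replicate blocks, other thresholds and leaving out each library. The models were also run on simulated counts with the same spread in every group. The real groups differed in spread, so that run does not give the error rates of these results. The members and lists were chosen with earlier results of these data known. All 48 members may be named. Of the other replication, regulator and mitosis lists at most 4 genes each were named, the 2 largest and the 2 smallest changes in WT. Markers of T cells and of myeloid cells were named without this rule. Outside the lists, the 10 genes most correlated with the mean course of the members were named. Exons of 18 members overlap those of another gene, 3 on the same strand and 16 on the other. Besides those given above, Ccne2 (609 bases with Ints8), Rfc5 (499 with Wsb2) and Lig1 (247 with Zswim9) overlap on the other strand. So do Dscc1 (199 with Gm41325), Rfc4 (194 with Eif4a2), Tk1 (83 with Afmid) and Pole (78 with Gm15792). Rpa1 shares 44 bases with Gm47300 on the same strand.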

Additional observations from a re-analysis of the deposited data

Results flagged for a closer look

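For 28 members the effect of CMA differed between the genotypes by a test of the difference itself, the interaction term in edgeR with Benjamini-Hochberg adjustment over 13811 genes. That is 58.3% of the 48 members, against 58.8% of all genes tested, so the share called in either direction lay near the background. The values are log2 differences, the WT effect minus the STINGgt/gt effect. The largest negative values were -1.04 for Dut, -0.77 for Pold2, -0.71 for Orc2, -0.65 for Pole2, -0.59 for Orc1, -0.57 for Mcm2, -0.56 for Pola1 and -0.49 for Rpa1. Tk1 had -0.43, Rrm1 -0.38, Prim2 -0.34, Rfc4 -0.33, Rfc1 -0.27, Cdt1 -0.26, Gins1 -0.25, Pola2 -0.24, Mcm3 -0.22, Pcna -0.22, Rpa3 -0.21 and Mcm4 -0.21. The smallest negative values were -0.18 for Mcm6, -0.17 for Prim1, -0.16 for Chaf1b and -0.16 for Mcm5. Positive values were 0.99 for Ccne1, 0.31 for Dscc1, 0.19 for Pole and 0.19 for Tyms. In groups of 3 libraries, no rule for a sample far from the others was applied.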

How the results depend on the processing

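Of the member calls, 24 of 31 in WT, 19 of 28 for the difference between genotypes and 23 of 30 between genotypes with DMSO held in every alternative other than the stricter thresholds. Of the members not called, 8 of 17 in WT, 2 of 47 in STINGgt/gt, 6 of 20 for the difference and 9 of 18 between genotypes with DMSO passed in at least 1 alternative. No value changed sign where it was called. With a 2-fold minimum, 1 member rose and 0 fell in WT, 0 rose in STINGgt/gt, the difference was positive for 0 and negative for 1, and 0 were lower or higher between genotypes. At an adjusted p under 0.01, 0 members rose in STINGgt/gt, the difference was positive for 2 and 0 were higher in WT with DMSO. In STINGgt/gt, 3 rose by DESeq2, 0 when unfiltered, 2 when 10 counts were asked of each library, 3 with only the 2 groups compared and 0 to 3 when a library was left out. Leaving out any WT CMA, STINGgt/gt DMSO or STINGgt/gt CMA library, or WT DMSO replicate 1, gave 0. On the authors' log2 table the difference was positive for 7 members and its median was -0.092. It was positive for 2 to 6 when a library was left out, with 2 without WT CMA replicate 1 or 3, STINGgt/gt DMSO replicate 2 or STINGgt/gt CMA replicate 3. Members higher in WT with DMSO numbered 2 by limma-voom and on the log2 table, 0 without a filter or with only the 2 groups compared, and 0 to 2 when a library was left out. The cause of these changes was not tested.

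Samples with the same replicate number correlated weakly in their deviations from the group means (0.00195 to 0.132, above 0.1 in 2 of 6 pairs), and 10 of 12 libraries correlated best with the library of their own number. The library names share a first digit in 5 of the 6 pairs, but no label says what it marks, so whether the libraries are paired is not settled. With a replicate block in edgeR, 10 members rose and 21 fell in WT, 1 rose in STINGgt/gt, and the difference was positive for 5 and negative for 24. With the block taken from the library names, 0 rose in STINGgt/gt, and the difference was positive for 4 and negative for 18. The comparison of genotypes could not be fitted with such a block.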

Other observations

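Genes around S phase that the list does not hold were read as well, each with the same edgeR fit. A list of 26 regulators held members of the E2F, pocket protein and DREAM families and other genes such as Myc and Cdkn2c. Of these 26, 12 rose (46.2%) and 7 fell (26.9%) in WT with CMA, against 33% and 37.4% of all 13811 genes tested. The median log2 fold change was 0.11 against -0.04. Myc, a transcription factor of growth and proliferation, went from 317 ± 17.7 to 498 ± 23.0 CPM (SD, n = 3, log2 0.65, edgeR adjusted p = 2.2e-08), and Lin54, the DNA-binding subunit of DREAM, from 60.8 ± 10.1 to 88.3 ± 2.22 CPM (log2 0.53, edgeR adjusted p = 2.5e-05). E2f4, the main E2F factor of DREAM, fell from 215 ± 7.29 to 131 ± 4.21 CPM (log2 -0.71, edgeR adjusted p = 2.8e-10), and Cdkn2c, an inhibitor of the cyclin D kinases, from 19.8 ± 0.350 to 12.2 ± 0.318 CPM (log2 -0.69, edgeR adjusted p = 1.7e-07).

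Of 20 mitosis genes, 3 rose (15%) and 13 fell (65%) in WT with CMA, against the same 33% and 37.4% of all genes, with a median of -0.28. Cenpf and Mki67 rose by 0.34 and 0.33 (edgeR adjusted p = 0.0028 and 7.4e-04), and cyclin B1 (Ccnb1) and the checkpoint kinase Bub1b fell by 0.49 and 0.48 on the log2 scale (edgeR adjusted p = 5.8e-08 and 2.8e-07). In STINGgt/gt, edgeR called 0 genes of either list, with 4 (15.4%) and 0 at an unadjusted p under 0.05, against 13% of all genes. With DMSO, 9 regulators were lower and 4 higher in WT than in STINGgt/gt, and 9 mitosis genes were lower and 0 higher, against 19.8% lower and 22.9% higher among all genes.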
